A study of Homo sapiens with 6 samples.

Results

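The expression of 48 interferon-stimulated genes was followed gene by gene after knockdown of the long noncoding RNA MIR100HG in MDA-MB-231 cells. The 48 genes were taken as a list of symbols, with no threshold on any value, but the list was chosen with earlier results of these data known. All 48 were found once each among the 27745 genes of the count table. They were grouped by family or role as IFIT, OAS, IFITM and MX genes, the ISG15 system, signalling proteins, RNA sensors, PARP and DTX3L, IFI genes, SAMD9 genes and other effectors. MDA-MB-231 is an established human line of triple-negative breast cancer, which lacks the estrogen and progesterone receptors and amplified HER2. All cells had been infected with a pLKO.1 lentivirus carrying a short hairpin RNA, which was the control hairpin sh-TRC in 2 samples, sh-MIR100HG-1 in 2 samples and sh-MIR100HG-2 in 2 samples. Total RNA of these 6 samples was sequenced, and reads were counted per gene. The study calls the samples of each MIR100HG hairpin biological replicates, but no source used here says whether they came from separate infections, so p-values measure only the spread between these samples. All samples are of 1 cell line, and no uninfected cells and no cells given interferon were analysed here.

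Interferons are secreted proteins that bind receptors on the cell surface and, through the kinases JAK1 and TYK2, activate a transcription complex that includes STAT2 and IRF9. This complex binds the interferon-stimulated response element (ISRE), a short DNA motif near the start of many genes, and the gamma-activated sequence (GAS) is another motif of the pathway. The induced genes encode proteins that sense foreign RNA, block viral entry, translation or release, and feed back on the pathway, and many cancer cells express part of this set without added interferon.

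The DNA motif that the pathway is known to use was searched in the promoters of the 48 genes, because it is the feature the list could share beyond its names. RefSeq promoter sequences (GRCh38.p14, 250 bases before to 50 after the start) were matched for 39 of the 48 genes and were missing for IFIT2, OAS2, OASL, IFITM2, MX2, USP18, IRF7, DHX58 and TRIM22. The ISRE core GAAANNGAAA, on either strand, was present in 25 of the 39 promoters (64.1%) and in 3.57% of all 35116 promoters of the same length. The GAS core TTCNNNGAA was present in 11 of 39 (28.2%), against 7.66% of all promoters, and in 4 of these 11 it overlapped an ISRE match. At least 2 ISRE matches were found in 14 promoters. The list holds genes known to be induced by interferon, so a high share of ISRE matches was built into it and is no result about these samples. Only 1 promoter per listed gene was kept, while all promoters were taken as they stood, expressed here or not. A match is a description of the letters in this window and not a measured binding site. Windows of 30 bases around an ISRE match are shown for 11 of the 25 genes, picked after their values were seen as examples from the families described below, so that the cores of genes with unlike values can be set side by side. Each is read in the direction of the gene, with the core in capitals, which reads TTTCNNTTTC where it lies on the other strand. The place of each window is given in GRCh37, the build of the counted annotation, where the 300 bases around it had 1 exact match on the chromosome.
MX1, chr21:42792486-42792515, plus strand: gagcagaaatGAAACCGAAActgaattgtc
ISG15, chr1:948760-948789, plus strand: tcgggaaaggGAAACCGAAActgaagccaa
DDX60, chr4:169239937-169239966, minus strand: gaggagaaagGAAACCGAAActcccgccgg
IFITM1, chr11:314024-314053, plus strand: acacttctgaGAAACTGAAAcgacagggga
IFITM3, chr11:320876-320905, minus strand: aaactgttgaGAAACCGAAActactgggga
SAMD9, chr7:92747409-92747438, minus strand: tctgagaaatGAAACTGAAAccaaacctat
OAS3, chr12:113376257-113376286, plus strand: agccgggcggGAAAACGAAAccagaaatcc
IFI6, chr1:27998777-27998806, minus strand: gcagagtgcaGAAATAGAAActccgacagg
IFI27, chr14:94576977-94577006, plus strand: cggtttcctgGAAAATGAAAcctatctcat
IFIT1, chr10:91152267-91152296, plus strand: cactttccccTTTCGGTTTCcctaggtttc
IFIT3, chr10:91087622-91087651, plus strand: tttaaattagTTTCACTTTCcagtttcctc
The core was spelled GAAACCGAAA in MX1, ISG15, DDX60 and IFITM3 and GAAACTGAAA in IFITM1 and SAMD9. Of these genes, SAMD9 was highest in the control sample in which MX1 and IFITM1 were lower. Because the windows were picked with the values known, this contrast is no result about the spelling of the core. Over the 25 genes with an ISRE match and the 14 matched genes without one, the median log2 fold change was -0.75 and -0.72 with sh-MIR100HG-1, 0.05 and 0.11 with the other hairpin, -0.43 and -0.25 for the mean of both hairpins, and 0.59 and 0.81 for sh-MIR100HG-2 over sh-MIR100HG-1. These medians were not tested.

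The libraries held 43804736 to 64588388 counts, and levels are given as CPM, the counts scaled to a common library size with TMM factors of 0.948 to 1.07. MIR100HG, the target of both hairpins, was at 41.9 and 58.5 CPM in sh-TRC replicates 1 and 2, at 15.2 and 13.2 CPM with sh-MIR100HG-1 and at 16.6 and 10.4 CPM with sh-MIR100HG-2. It was lower in all 4 knockdown samples than in both controls, by -1.86 ± 0.25 on the log2 scale (SE), with p = 0.0667 in a two-sided exact permutation test of 4 samples against 2, the smallest p that this design allows (the smallest is 0.333 for 2 samples against 2). Of the markers of the line, VIM was at 1607 to 2095 CPM and PGR at 0 to 0.0236 CPM, while CD44 was at 538 to 957, FN1 at 356 to 799.8, ERBB2 at 71.6 to 116, CDH1 at 1.5 to 7.05 and EPCAM at 4.37 to 13.0 CPM. ESR1 was at 2.38 CPM in sh-TRC replicate 2 and 2.79 CPM in sh-MIR100HG-1 replicate 1 against 0.12 to 0.59 CPM elsewhere. Of the leukocyte markers, PTPRC was at 0.12 to 0.689 CPM, CD3E at 0 to 0.149, CD14 at 1.09 to 4.32, LYZ at 0.632 to 3.67 and ITGAM at 0.0882 to 0.298 CPM, and CD14 and LYZ were highest in sh-TRC replicate 2. Their part in the values below was not tested. The share of counts from mitochondrial genes was 3.46% and 2.41% in sh-TRC, 3.30% and 3.38% with sh-MIR100HG-1 and 1.52% and 1.84% with sh-MIR100HG-2. It was thus lower in sh-TRC replicate 2 and both sh-MIR100HG-2 samples, the samples in which many interferon-stimulated genes stood higher, and its part in those values was not tested. In these bulk samples, fewer expressing cells and less RNA per cell cannot be told apart.

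All 48 genes were expressed in this line without added interferon. Their counts ranged from 61 to 71528 per sample, and all 48 passed the filter on low counts. Per kilobase of exon, ISG15 had the highest level in the controls at 928 CPM per kb, followed by IFIT3 at 444, IFITM3 at 352, BST2 at 291 and LGALS3BP at 216 CPM per kb. IRF9 had the lowest at 0.479 CPM per kb, although its product is part of the complex that induces the others. Of the exon bases of IRF9, 48.44% are shared with another annotated gene on the same strand, ENSG00000259529, and how reads there were counted is not given in the sources used here, so the level of IRF9 is uncertain. The same holds for IFITM1 and IFITM2, which share 351 exon bases and are paralogs of IFITM3. In part it holds for PARP9 and DTX3L, whose exons overlap on opposite strands over 217 bases. The antisense gene that covers 21.29% of the exon bases of IFITM3 was at 0.0945 CPM or less.

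A difference between the control samples ran through most of the values. Replicate 2 of sh-TRC was above replicate 1 in 38 of the 48 genes (79.2%, against 49.1% of the 15372 genes tested) and above it by more than 1 on the scale of log2(CPM + 0.125) in 18 genes (37.5%, against 2.3% of all genes). The median difference over the 48 genes was 0.55, and it ran from -1.48 for SAMD9 to 2.62 for CMPK2. The sh-MIR100HG-2 mean was above the sh-MIR100HG-1 mean in 42 genes (87.5%, against 48.6% of all genes). The median difference was 0.83, with a lowest value of -0.75 for SAMD9 and a highest of 3.08 for CMPK2. Replicate 1 of sh-MIR100HG-1 was the lowest of the 6 samples in 28 of the 48 genes (lowest in 12.1% of all genes), replicate 2 of sh-TRC was the highest in 23 (16.8% of all genes) and replicate 1 of sh-MIR100HG-2 was the highest in 13 (14.6% of all genes). The samples therefore ran, by the median position of the 48 genes around each gene's own mean, from -0.59 and -0.50 with sh-MIR100HG-1 through -0.18 in sh-TRC replicate 1 and 0.07 in sh-MIR100HG-2 replicate 2 to 0.53 in sh-MIR100HG-2 replicate 1 and 0.55 in sh-TRC replicate 2. The same measure over all genes lay between -0.04 and 0.03.

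**Figure D1:**
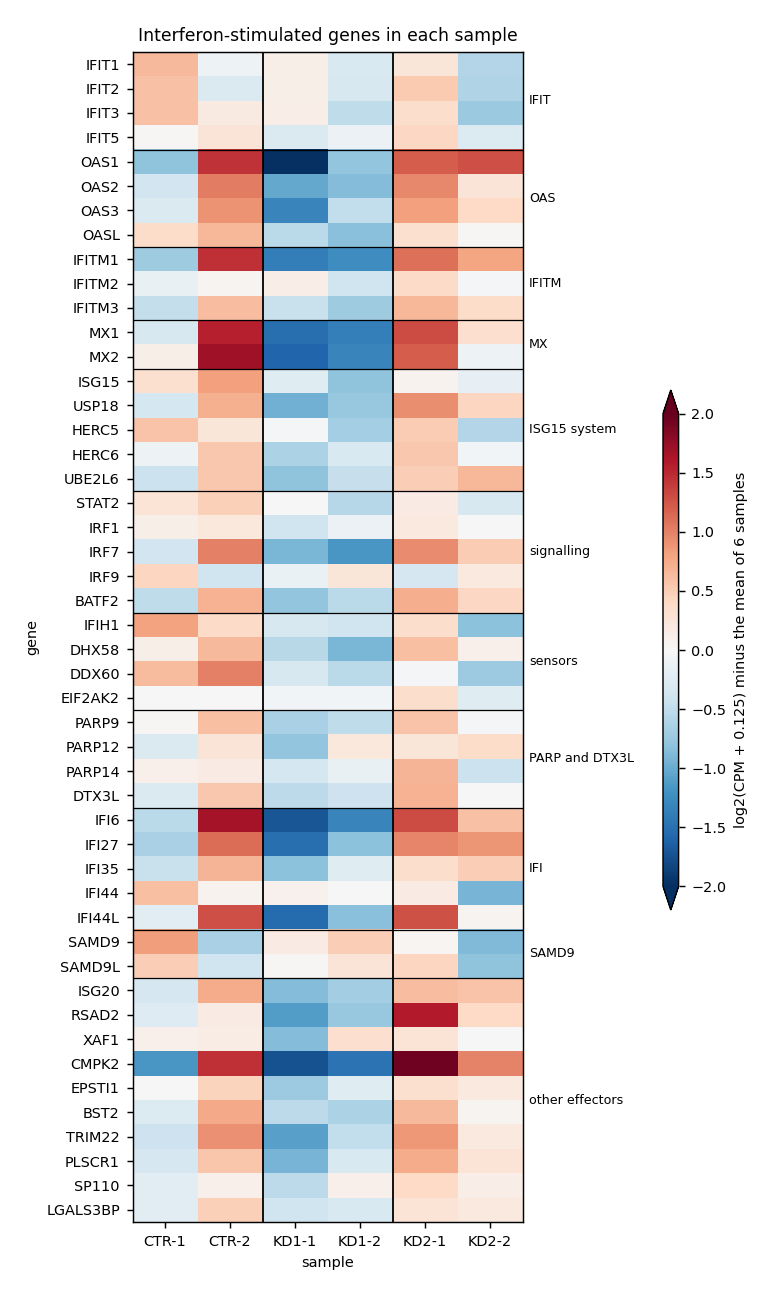
Level of each of the 48 genes (rows, by family) in each of the 6 samples (columns), as log2(CPM + 0.125) minus the gene's mean over the samples, red above and blue below, with values beyond 2 drawn at the ends of the scale. CTR is sh-TRC, KD1 is sh-MIR100HG-1 and KD2 is sh-MIR100HG-2, each followed by the replicate number. Most rows are blue in both KD1 columns and red in CTR-2 and KD2-1, while the IFIT and SAMD9 rows run differently.

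The genes that differed most between the controls also differed most between the hairpins. Across the 48 genes, the difference between the controls and that between the sh-MIR100HG-2 and sh-MIR100HG-1 means, which have no sample in common, had a Pearson correlation of 0.938 and a Spearman correlation of 0.94, with the same sign in 44 genes (91.7%). Over all 15372 genes tested, the same correlations were 0.597 and 0.678, with the same sign in 79.1%, so the relation was not limited to interferon-stimulated genes. Genes are not independent replicates, and the points share 6 libraries, so this is a description only. Both sh-MIR100HG-2 samples lay between the controls in 16 of the 48 genes (33.3%, against 11.7% of all genes), among them OAS1, IFITM1, MX1, IFI6 and IFI27. Both sh-MIR100HG-1 samples lay below both controls in 34 of the 48 genes, against 20.2% of all genes. RSAD2 lay off the common course, since its controls differed by 0.42 and its hairpins by 1.92, and DDX60 lay off it on the other side at 0.38 and 0.06.

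**Figure D2:**
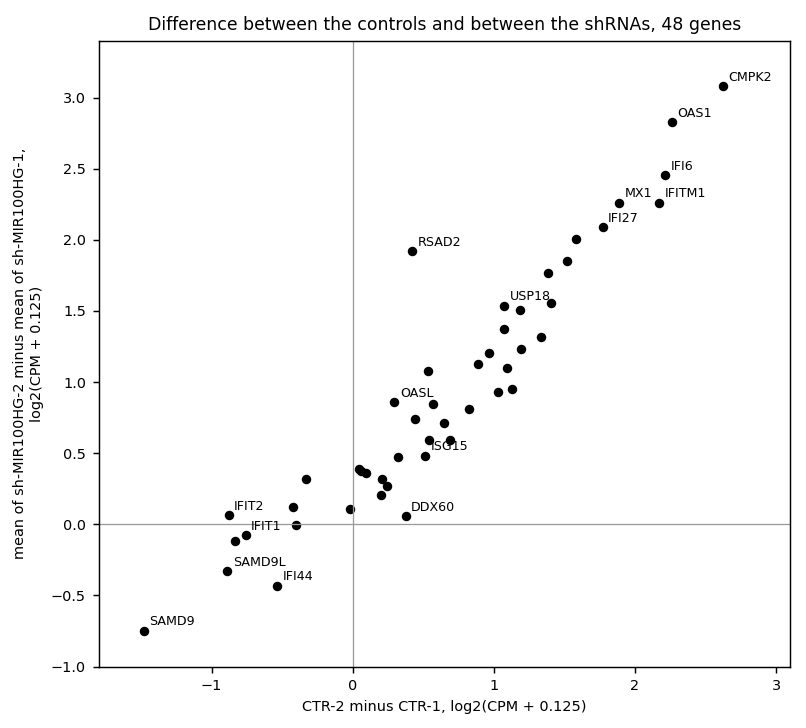
For each of the 48 genes (points), the difference between sh-TRC replicates 2 and 1 (horizontal axis) and between the mean of sh-MIR100HG-2 and the mean of sh-MIR100HG-1 (vertical axis), both on the scale of log2(CPM + 0.125). The points run from SAMD9 at -1.48 and -0.75 to CMPK2 at 2.62 and 3.08, and RSAD2 lies above them.

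Each hairpin, and the mean of both, was compared with sh-TRC, and the hairpins were compared with each other, with edgeR's quasi-likelihood test over 15372 genes. None of the 48 genes passed an adjusted p of 0.05 (Benjamini-Hochberg) in any of the 4 comparisons, and neither did any other gene (0.0% of 15372). The controls enter 3 of these comparisons, which therefore share their samples. At an unadjusted p under 0.05, 9 of the 48 genes were lower and 0 higher for the mean of both hairpins, where 4.44% of all genes were lower and 3.23% higher in the same way. For sh-MIR100HG-1, 26 of the 48 were lower and 0 higher, against 3.77% and 3.1% of all genes. For sh-MIR100HG-2, 2 were lower (ISG15 and DDX60) and 1 higher (RSAD2), against 5.15% and 3.71% of all genes. These sh-MIR100HG-2 counts were thus not above the shares over all genes. For sh-MIR100HG-2 against sh-MIR100HG-1, 28 were higher and 0 lower, against 3.34% and 6.12% of all genes. In total 32 of the 48 genes (66.7%) had an unadjusted p under 0.05 in at least 1 comparison, against 19.5% of all genes. The adjusted p of the genes so counted was 0.381 to 0.644 for the mean of both hairpins, 0.714 for sh-MIR100HG-1, 0.445 to 0.555 for sh-MIR100HG-2 and 0.509 to 0.521 between the hairpins. By edgeR's likelihood ratio test, 1, 5, 1 and 11 of the 48 genes passed the adjusted p of 0.05 in these comparisons in the same order, and by DESeq2 1, 6, 1 and 12. The study reported genes that passed its threshold on the false discovery rate. Its methods name glmLRT, edgeR's likelihood ratio function, while calling it the quasi-likelihood method. The absence of calls above thus belongs to the quasi-likelihood test with this filter on low counts.

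The median log2 fold change of the 48 genes was -0.41 for the mean of both hairpins, -0.76 for sh-MIR100HG-1, 0.06 for sh-MIR100HG-2 and 0.86 for sh-MIR100HG-2 over the other hairpin, where the medians over all genes lay between -0.04 and -0.0037. The values against the control depended on which control sample was used. Without sh-TRC replicate 2, the medians for the mean of both hairpins, for sh-MIR100HG-1 alone and for the other hairpin were 0.050, -0.49 and 0.47. Without sh-TRC replicate 1, the medians were -0.63, -1.15 and -0.19. Of the knockdown samples, leaving out sh-MIR100HG-2 replicate 1 gave a median of -0.58 for the mean of both hairpins. Leaving out sh-MIR100HG-2 replicate 2 gave -0.30. The comparison between the hairpins takes its difference from no control value. With any 1 sample left out, its log2 fold changes fell as low as -1.22 for SAMD9, -0.98 for IFI44 and -0.95 for SAMD9L. Those of the genes with an unadjusted p under 0.05 in the full fit stayed above 0, the lowest being 0.40 for HERC6. These genes were picked from the same samples, and their hairpin samples did not overlap. Staying above 0 was therefore set by how they were picked and is no further result. Groups did not overlap in 5 genes that were lower in all 4 knockdown samples (OASL, ISG15, STAT2, IFIH1 and DDX60). This count was near the share over all genes, of which 9.08% were lower in that way. Of the 48 genes, 0 were higher, against 8.4% of all genes. With sh-MIR100HG-1, 34 genes were below both controls and 0 above, against 20.2% and 20.3% of all genes. With sh-MIR100HG-2, 5 were below and 2 above (RSAD2 and SP110), both less often than the 20.4% and 18.1% of all genes. Between the hairpins, both sh-MIR100HG-2 samples were above both others in 32 genes and below them in SAMD9 alone, against 20.6% and 23.3% of all genes.

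**Figure D3:**
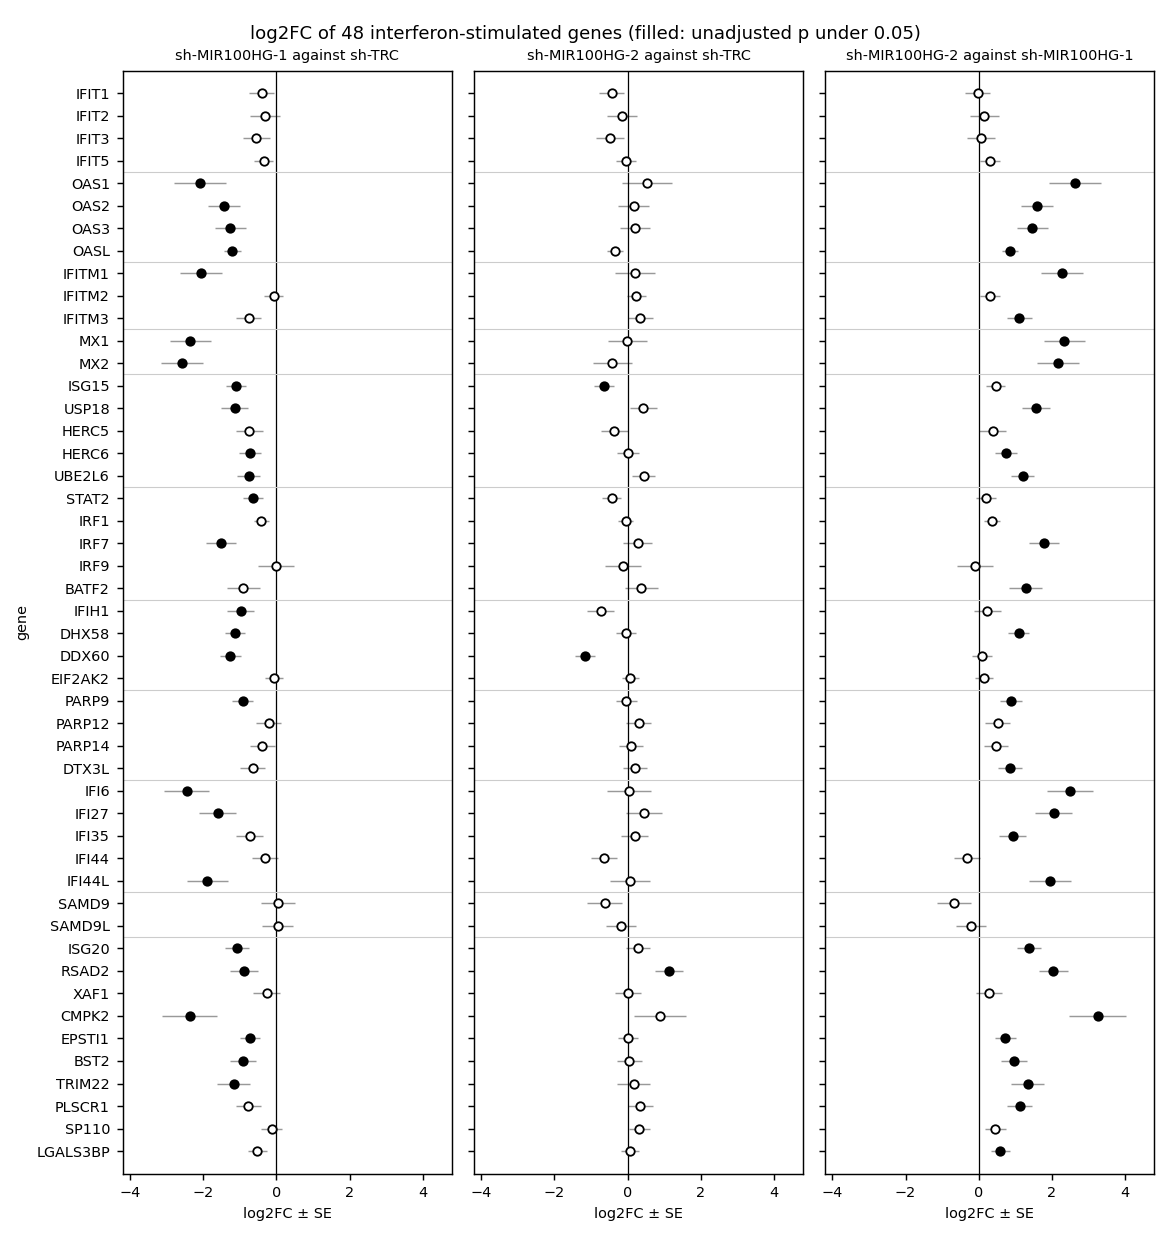
Log2 fold change of each of the 48 genes (rows, by family) against sh-TRC for each hairpin and of sh-MIR100HG-2 over sh-MIR100HG-1, with bars of 1 standard error from edgeR's fit and filled points at an unadjusted p under 0.05. The sh-MIR100HG-1 values lie between -2.58 and 0.05 and the sh-MIR100HG-2 values between -1.17 and 1.14.

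The MX genes had the lowest median log2 fold change of the families with sh-MIR100HG-1, at -2.46, and MX2 had the lowest of the 48 genes. They encode dynamin-like GTPases that trap viral components and lie side by side at chr21:42733870-42831141 (GRCh37). MX1 (ENSG00000157601) was at 98.0 and 363 CPM in the controls, 43.0 and 47.5 CPM with sh-MIR100HG-1 and 303 and 155 CPM with sh-MIR100HG-2, each pair in the order of replicates 1 and 2. MX2 was at 24.0 and 71.8, 7.27 and 8.79, and 51.3 and 20.6 CPM in the same order. Both sh-MIR100HG-1 samples lay below all other samples for both genes, and the sh-MIR100HG-2 samples overlapped the controls. The log2 fold change was -2.35 ± 0.57 for MX1 and -2.58 ± 0.58 for MX2 with sh-MIR100HG-1, and -0.01 ± 0.54 and -0.41 ± 0.54 with sh-MIR100HG-2. Between the hairpins it was 2.34 ± 0.57 for MX1 and 2.16 ± 0.57 for MX2, with an adjusted p of 0.509 for both by edgeR's quasi-likelihood test. For the mean of both hairpins MX1 had a log2 fold change of -1.18, which became 0.055 without sh-TRC replicate 2.

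The OAS genes encode oligoadenylate synthetases, which on binding double-stranded RNA make a messenger that activates the nuclease RNase L, except OASL, which lacks that activity. All 4 had an unadjusted p under 0.05 with sh-MIR100HG-1 and between the hairpins, and 3 of them form a cluster at chr12:113344582-113449528. OAS1 (ENSG00000089127) was at 39.6 and 190.2 CPM in the controls, 13.4 and 40.4 CPM with sh-MIR100HG-1 and 162 and 170.4 CPM with sh-MIR100HG-2. OAS2 was at 149 and 396, 95.8 and 107, and 379.9 and 234 CPM. OAS3 was at 195 and 444, 96.3 and 170.5, and 421 and 314 CPM. For these genes sh-TRC replicate 2 was the highest sample and sh-MIR100HG-1 replicate 1 the lowest, and sh-MIR100HG-1 replicate 2 overlapped the controls for OAS1 alone. OASL (ENSG00000135114), which lies apart on chromosome 12, ran differently at 467 and 573, 248 and 202, and 449 and 368 CPM, with each knockdown sample under the lower control. Its log2 fold change was -1.21 ± 0.23 with sh-MIR100HG-1, where it had the smallest p of the 48 genes (adjusted p = 0.714 by edgeR), and -0.35 ± 0.23 with sh-MIR100HG-2. OAS1, OAS2 and OAS3 had log2 fold changes of -2.10, -1.43 and -1.26 with sh-MIR100HG-1 and of 0.53, 0.17 and 0.20 with sh-MIR100HG-2.

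The IFITM proteins sit in membranes and hinder the entry of enveloped viruses, and their genes lie within chr11:307631-327537. IFITM1 (ENSG00000185885) was at 26.7 and 120.4 CPM in the controls, 16.7 and 18.4 CPM with sh-MIR100HG-1 and 94.0 and 75.8 CPM with sh-MIR100HG-2. IFITM3 was at 302 and 646, 307 and 256, and 669 and 540.5 CPM. IFITM2 was at 44.6 and 51.6, 54.0 and 37.4, and 64.5 and 48.7 CPM. The members thus differed, since the hairpins did not overlap for IFITM1 and IFITM3 but did for IFITM2. Between the hairpins the log2 fold change was 2.28 ± 0.58 for IFITM1, 1.10 ± 0.34 for IFITM3 and 0.31 ± 0.26 for IFITM2, with adjusted p of 0.509, 0.509 and 0.696 by edgeR.

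The IFIT proteins bind foreign RNA and block its translation, and their 4 genes lie within chr10:91043451-91180758. None of the 4 had an unadjusted p under 0.05 in any comparison. IFIT3, which stood highest of them per length, was at 1332 and 1010.0 CPM in the controls, 977 and 627 CPM with sh-MIR100HG-1 and 1142 and 531 CPM with sh-MIR100HG-2. IFIT1 (ENSG00000185745) was at 794 and 469, 547 and 407, and 598 and 335 CPM, and IFIT2 at 983 and 534, 706 and 522, and 939 and 429 CPM. In these 3 genes replicate 1 was above replicate 2 in every group, sh-TRC replicate 1 was the highest sample and the groups overlapped for IFIT1 and IFIT2. IFIT5 was at 66.5 and 78.8, 53.6 and 60.5, and 87.2 and 54.0 CPM. The log2 fold changes of the 4 genes ran from -0.55 to -0.30 with sh-MIR100HG-1, from -0.48 to -0.04 with sh-MIR100HG-2 and from -0.03 to 0.31 between the hairpins, with standard errors of 0.27 to 0.41.

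ISG15 is a ubiquitin-like protein that UBE2L6 and HERC5 attach to targets and USP18 removes, and HERC6 is a relative of HERC5. ISG15 (ENSG00000187608) was at 721 and 1027 CPM in the controls, 489 and 329.8 CPM with sh-MIR100HG-1 and 607 and 517 CPM with sh-MIR100HG-2. All 4 knockdown samples were below both controls, and the hairpins did not overlap. It was 1 of 2 genes of the list that were lower with each hairpin at an unadjusted p under 0.05, by -1.09 ± 0.27 and -0.64 ± 0.27 on the log2 scale, with adjusted p of 0.714 and 0.555 by edgeR. USP18 was at 16.6 and 35.0, 10.9 and 12.6, and 40.9 and 28.7 CPM, and UBE2L6 at 100.4 and 196, 77.6 and 98.0, and 189.7 and 214 CPM. HERC6 was at 154 and 240.0, 106 and 133, and 240.2 and 158 CPM, and HERC5 at 244 and 194, 159 and 102, and 232 and 109 CPM. For USP18, UBE2L6 and HERC6, both sh-MIR100HG-1 samples were below all others, and both sh-MIR100HG-2 samples were above the lower control. Between the hairpins, the log2 fold change was 1.57 ± 0.37 for USP18, 1.20 ± 0.32 for UBE2L6 and 0.74 ± 0.30 for HERC6, each with an adjusted p of 0.509 by edgeR, and 0.38 ± 0.37 for HERC5 (adjusted p = 0.729).

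Among the signalling proteins, IRF7, the factor that amplifies interferon production, differed most. It was at 53.1 and 138 CPM in the controls, 36.6 and 30.8 CPM with sh-MIR100HG-1 and 133 and 98.0 CPM with sh-MIR100HG-2, with log2 fold changes of -1.51 ± 0.41, 0.27 ± 0.41 and, between the hairpins, 1.78 ± 0.42 (adjusted p = 0.509 by edgeR). STAT2 was at 138 and 159, 114 and 77.6, and 128 and 91.7 CPM, below both controls in all 4 knockdown samples. BATF2, a transcription factor of the AP-1 type, was at 2.70 and 6.34, 2.20 and 2.62, and 6.48 and 5.23 CPM, with the hairpins apart by 1.28 ± 0.45 on the log2 scale (adjusted p = 0.509 by edgeR). IRF9, the DNA-binding partner of STAT2, and IRF1, a factor that also binds the ISRE, had no unadjusted p under 0.05. IRF9 was at 2.36 and 1.27, 1.55 and 2.05, and 1.34 and 2.0 CPM, and IRF1 at 143 and 153, 100.3 and 122, and 152 and 132 CPM.

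The RNA sensors included the gene with the smallest p for the mean of both hairpins. DDX60 (ENSG00000137628), a helicase that aids RNA sensing, was at 231 and 300.1 CPM in the controls, 119 and 103 CPM with sh-MIR100HG-1 and 146 and 90.5 CPM with sh-MIR100HG-2. Every knockdown sample was under the lower control, and the hairpins overlapped each other. Its log2 fold change was -1.26 ± 0.28 with sh-MIR100HG-1, -1.17 ± 0.28 with sh-MIR100HG-2 and 0.09 ± 0.28 between them, and for the mean of both hairpins -1.21 ± 0.23 (adjusted p = 0.381 by edgeR), with values of -1.41 to -1.01 when any 1 sample was left out. IFIH1, which encodes the sensor MDA5, was at 114 and 85.2, 52.3 and 49.1, and 82.8 and 36.7 CPM, also below both controls in all 4 knockdown samples. DHX58, which encodes LGP2, was at 55.4 and 80.4, 34.9 and 27.1, and 77.5 and 54.6 CPM, with both sh-MIR100HG-1 samples and 1 sh-MIR100HG-2 sample under both controls. EIF2AK2, the kinase PKR that stops translation, was at 132 and 131, 126 and 126, and 167 and 111 CPM, with log2 fold changes of -0.06 ± 0.24 and 0.08 ± 0.24 for the hairpins.

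**Figure D4:**
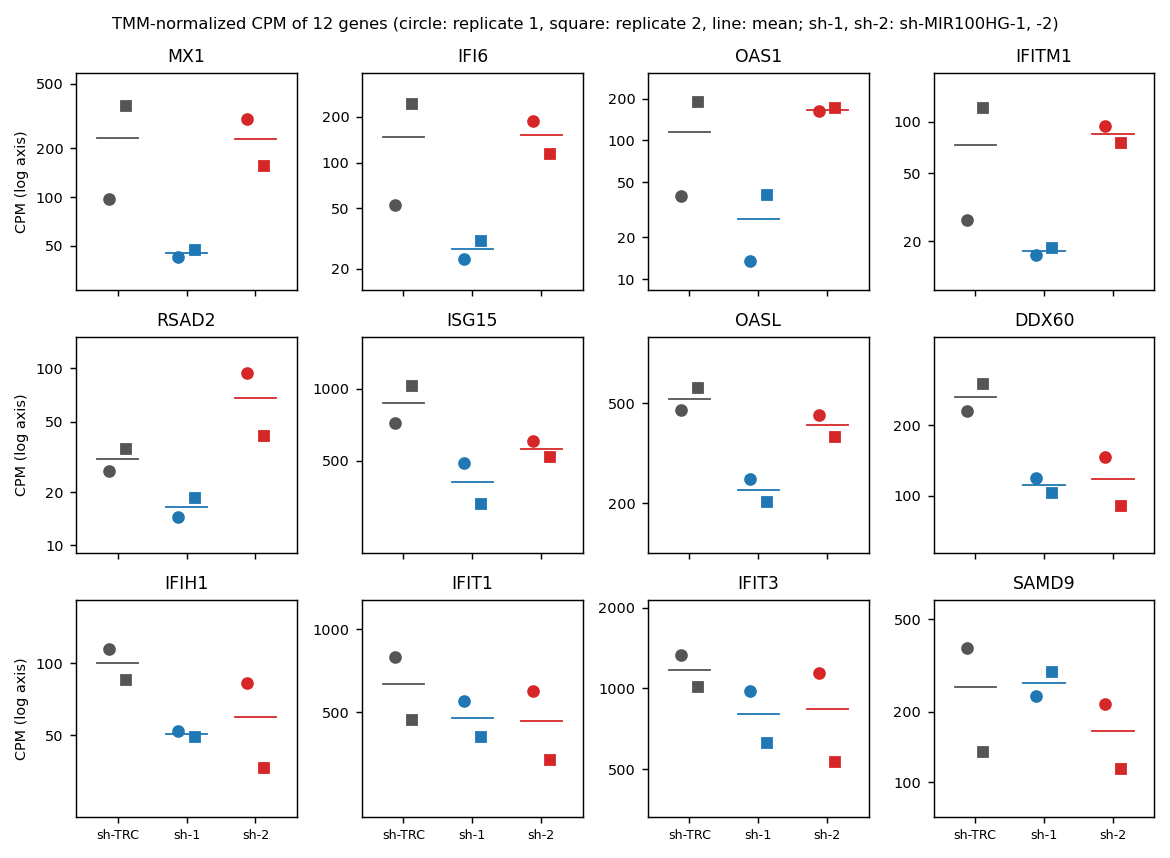
Level in CPM (log axis) of 12 of the genes in the samples of each group, with a circle for replicate 1, a square for replicate 2 and a line at the mean. MX1, for example, was at 98.0 and 363 CPM in the controls, and DDX60 in all knockdown samples was at or below 146 CPM, under both controls.

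The IFI genes were named for their induction and encode proteins of varied kinds, IFI6 and IFI27 being small hydrophobic proteins. IFI6 (ENSG00000126709) was at 52.2 and 242 CPM in the controls, 23.2 and 30.5 CPM with sh-MIR100HG-1 and 189 and 114 CPM with sh-MIR100HG-2. IFI27 was at 169 and 575, 93.6 and 150.3, and 520.4 and 489.8 CPM, and IFI44L at 16.1 and 46.2, 6.38 and 10.5, and 45.5 and 19.5 CPM. In all 3 genes the sh-MIR100HG-1 samples were below all others and the sh-MIR100HG-2 samples lay between the controls. IFI35 was at 52.4 and 115, 40.6 and 60.2, and 91.4 and 100.5 CPM. IFI44, which lies beside IFI44L within chr1:79085607-79129763, had its controls in the other order at 121 and 83.6, 84.5 and 80.7, and 89.2 and 41.9 CPM. Between the hairpins, IFI6 differed by 2.49 ± 0.62, IFI27 by 2.05 ± 0.51, IFI44L by 1.95 ± 0.57 and IFI35 by 0.93 ± 0.37 on the log2 scale, and IFI44 by -0.33 ± 0.35. The adjusted p was 0.509 by edgeR for the first 4 of these and 0.751 for IFI44. For the mean of both hairpins, IFI6 had a log2 fold change of -1.21, which became 0.29 without sh-TRC replicate 2.

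Among the other effectors, RSAD2 and CMPK2 are neighbours within chr2:6980701-7038370 whose exons overlap on opposite strands over 14 bases. RSAD2 encodes viperin, which makes a chain-terminating nucleotide, and CMPK2 a mitochondrial nucleotide kinase. RSAD2 (ENSG00000134321) was at 26.2 and 35.1 CPM in the controls, 14.5 and 18.5 CPM with sh-MIR100HG-1 and 94.1 and 41.3 CPM with sh-MIR100HG-2. The sh-MIR100HG-1 samples were below both controls and the sh-MIR100HG-2 samples above both, a course that no other gene of the 48 had. The log2 fold change was -0.89 ± 0.38 with sh-MIR100HG-1, 1.14 ± 0.38 with sh-MIR100HG-2 and 2.04 ± 0.39 between them (adjusted p = 0.509 by edgeR), where it had the smallest p of the 48 genes. CMPK2 (ENSG00000134326) was at 2.18 and 14.0, 1.42 and 1.72, and 19.7 and 10.2 CPM. It had the largest difference of the 48 genes between the hairpins, 3.25 ± 0.78, and also the largest between the controls.

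The remaining effectors mostly followed the order of the MX and OAS genes with smaller differences. BST2, or tetherin, holds budding virus at the cell surface and was at 214 and 437 CPM in the controls, 179.9 and 167 CPM with sh-MIR100HG-1 and 406 and 268 CPM with sh-MIR100HG-2. ISG20, an exonuclease, was at 104 and 219, 71.7 and 81.0, and 201 and 195 CPM, and TRIM22, a ubiquitin ligase, at 14.4 and 36.6, 9.04 and 13.7, and 35.2 and 22.1 CPM. For all 3 genes the sh-MIR100HG-1 samples were below both controls and the sh-MIR100HG-2 samples lay between them. PLSCR1, a scramblase, was at 68.5 and 127, 45.3 and 69.6, and 145 and 104 CPM. EPSTI1 was at 23.2 and 31.6, 13.9 and 19.5, and 28.8 and 26.6 CPM, and LGALS3BP, a secreted glycoprotein, at 593 and 957, 522 and 557, and 838 and 789 CPM. The hairpins did not overlap for any of these 6 genes, and their log2 differences between the hairpins ran from 0.59 for LGALS3BP to 1.37 for ISG20. SP110 and XAF1 had no unadjusted p under 0.05. SP110 was at 18.9 and 23.6, 15.3 and 23.5, and 29.0 and 24.0 CPM, with both sh-MIR100HG-2 samples above both controls, and XAF1 was at 58.9 and 60.8, 30.1 and 69.4, and 66.4 and 54.2 CPM.

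PARP9 and DTX3L form a ubiquitin ligase complex and lie with PARP14 within chr3:122246771-122449687. PARP9 was at 48.2 and 71.7 CPM in the controls, 30.1 and 33.1 CPM with sh-MIR100HG-1 and 70.6 and 46.0 CPM with sh-MIR100HG-2. DTX3L was at 75.4 and 134, 64.1 and 69.0, and 149.9 and 91.1 CPM. Both genes were lowest in the sh-MIR100HG-1 samples, and PARP9 was also below both controls in sh-MIR100HG-2 replicate 2. Their differences between the hairpins were 0.88 ± 0.29 and 0.86 ± 0.33 on the log2 scale, with an adjusted p of 0.509 for each by edgeR. PARP14, the highest of this group per length over all samples, was at 183 and 191, 133 and 153, and 272 and 126 CPM, and PARP12 at 74.4 and 108, 52.8 and 105, and 108 and 118 CPM.

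SAMD9 and SAMD9L, neighbouring genes within chr7:92728826-92777682 whose products restrict poxviruses, had their controls in the opposite order to the MX genes. SAMD9 was at 376 and 135 CPM in the controls, 235 and 296 CPM with sh-MIR100HG-1 and 217 and 114 CPM with sh-MIR100HG-2. SAMD9L was at 142 and 76.5, 102 and 120.5, and 135 and 57.9 CPM. The sh-MIR100HG-1 samples of both genes lay between the controls, and sh-TRC replicate 1 was the highest sample of all. The log2 fold change was 0.05 ± 0.47 and 0.03 ± 0.42 with sh-MIR100HG-1 and -0.63 ± 0.47 and -0.18 ± 0.42 with sh-MIR100HG-2.

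The genes that act above and beside the 48 were given from a list of 75 further genes of the interferon pathway, of which 74 were matched and 64 passed the filter on low counts. Of the ligands, IFNA1, IFNA2, IFNB1, IFNE, IFNK, IFNW1 and IFNG had 0 counts in all 6 samples, and the type III genes IFNL1, IFNL2 and IFNL3 were detected. IFNL1 was at 7.78 and 5.40 CPM in the controls, 1.97 and 2.57 CPM with sh-MIR100HG-1 and 8.73 and 4.28 CPM with sh-MIR100HG-2. IFNL3 was at 0.80 and 0.917, 0.136 and 0.331, and 1.19 and 0.959 CPM, and IFNL2 at 0.521 and 1.07, 0.151 and 0.519, and 1.37 and 1.02 CPM, from as few as 9 and 10 counts. IFNL2 and IFNL3 are near-identical copies, so reads may have been split between them. All 3 were lowest in the sh-MIR100HG-1 samples, by log2 fold changes of -1.54 ± 0.43, -1.29 ± 0.71 and -1.91 ± 0.62 for IFNL1, IFNL2 and IFNL3. None of the 6 receptor genes had an unadjusted p under 0.05 in any comparison, IFNAR1 being at 35.5 to 63.9 CPM and IFNLR1 at 10.2 to 18.4 CPM.

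At an unadjusted p under 0.05, 2 of the 64 pathway genes (3.12%) were higher (IRF2 and SOCS3) and 7 (10.9%) lower for the mean of both hairpins, where 3.23% and 4.44% of all genes were. With sh-MIR100HG-1, 1 was higher (1.56%) and 20 lower (31.2%), against 3.1% and 3.77% of all genes. With sh-MIR100HG-2, 2 were higher (3.12%) and 4 lower (6.25%), which is near the 3.71% and 5.15% of all genes. Between the hairpins, 13 were higher (20.3%) and 1 lower (JAK2, 1.56%), against 3.34% and 6.12% of all genes. None passed the adjusted p of 0.05 in edgeR's quasi-likelihood test. CCL5, a chemokine, was at 8.60 and 17.2 CPM in the controls, 2.79 and 5.88 CPM with sh-MIR100HG-1 and 23.5 and 18.8 CPM with sh-MIR100HG-2, so that like RSAD2 it lay below both controls with one hairpin and above both with the other. The nucleic acid sensor ZBP1, at 0.0602 to 1.04 CPM from as few as 3 counts, and the membrane-anchored protein LY6E, at 125 to 687 CPM, followed MX1, with differences between the hairpins of 3.47 ± 0.99 and 1.73 ± 0.52. HELZ2, RTP4, GBP4, GBP5 and TRIM21 were also higher with sh-MIR100HG-2 than with sh-MIR100HG-1, by 1.22 for TRIM21 to 2.25 for GBP5 on the log2 scale. IRF5, a transcription factor, ran with DDX60 instead, at 4.41 and 4.06, 1.82 and 1.30, and 1.08 and 1.6 CPM, with log2 fold changes of -1.44 ± 0.42 and -1.66 ± 0.43 for the hairpins. SOCS3, an inhibitor of the JAK kinases, was at 62.6 and 75.0, 91.7 and 115, and 118 and 115 CPM, above both controls in all 4 knockdown samples, with log2 fold changes of 0.59 ± 0.22 and 0.76 ± 0.22.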

How the data were processed

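Total RNA of 6 samples, 2 for each of sh-TRC, sh-MIR100HG-1 and sh-MIR100HG-2, was sequenced. According to the methods and the submitters' processing notes, the authors mapped reads to GRCh37 with STAR (2.5.2a in the notes), counted them per gene with FeatureCounts and deposited raw counts without normalization, with gene lengths beside them. Strandedness and the treatment of reads that map to several places are not given in the sources used here. The samples held 43804736 to 64588388 counts, and groups were taken from the sample titles.

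The 12373 genes with fewer than 5 counts in at least 3 samples were removed, and 15372 were tested with edgeR 4.0.16 (R 4.3.3), using TMM factors, glmQLFit and glmQLFTest in 1 fit of 3 groups with 3 residual degrees of freedom. The common biological coefficient of variation was 27.8%. The Benjamini-Hochberg adjustment covered all of these genes, with a threshold of 0.05. Counts at an unadjusted p under 0.05 in this fit are set beside the shares of all genes. Errors on log2 fold changes are standard errors from this fit, and differences on the scale of log2(CPM + 0.125) are taken between samples without a fit. Alternatives were DESeq2 1.42.0, the likelihood ratio test (glmLRT, which the study's methods name), other size factors, other filters, a replicate block and leaving out each sample. The fit was tested on simulated counts.

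The 48 genes, the pathway list and the marker lists were chosen with earlier results of these data known. Values in every sample are given for genes with an unadjusted p under 0.05 in any comparison and for the highest of each family per length, and of the pathway list for at most 12 genes with the smallest p, with ligands and receptors by level. Values of other genes of the 48, and of IFNL2, IRF2 and JAK2, were added after they were seen. The deviations from the group mean of samples with the same number had correlations of -0.2, 0.001 and 0.403 for the 3 pairs of groups, so the numbers were not taken to pair the samples. No samples agreed within sampling noise (chi-square per gene of 119 to 166 between replicates). Promoters came from RefSeq (GRCh38.p14), and motif windows were placed on GRCh37 by exact match. Some genes of the pathway and marker lists are not reported here.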

Additional observations from a re-analysis of the deposited data

Results flagged for a closer look

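In 3 genes, both samples of one hairpin lay below both controls and both samples of the other lay above both. The log2 difference of sh-MIR100HG-2 over sh-MIR100HG-1 was 2.04 for RSAD2, 2.23 for IFNL3 and 2.30 for CCL5 by edgeR's quasi-likelihood test, with an adjusted p of 0.509 for each, so none passed the correction. RSAD2 was the only one of the 48 genes with this course, and IFNL3 rests on 9 counts in its lowest sample. Groups of 2 samples are too small to look for single samples that stand apart.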

How the results depend on the processing

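No member passed the adjusted p of 0.05 with any 1 sample left out or with a replicate block. Without a filter on low counts, 10, 20, 2 and 22 of the 48 genes passed it for the mean of both hairpins, for sh-MIR100HG-1, for the other hairpin and between the hairpins (392, 227, 517 and 679 of all genes). By the likelihood ratio test 1, 5, 1 and 11 passed (109, 34, 121 and 91 of all genes), and by DESeq2 1, 6, 1 and 12 (130, 66, 167 and 103). At an unadjusted p under 0.05, the counts without a filter were 21 for the mean of both hairpins and 8 for sh-MIR100HG-2. The cause of these differences was not tested. With samples left out in turn, these counts ran from 5 to 23 for the mean of both hairpins, 8 to 29 for sh-MIR100HG-1, 2 to 17 for sh-MIR100HG-2 and 19 to 29 between the hairpins, and the median log2 fold changes from -0.63 to 0.050, -1.15 to -0.49, -0.22 to 0.47 and 0.60 to 1.0. For the mean of both hairpins, leaving out a control gave -1.83 (without replicate 1) to 0.055 (without replicate 2) for MX1 and -1.93 to 0.29 for IFI6, so both changed sign without sh-TRC replicate 2. MIR100HG kept its direction against the control in every setting and passed the adjusted p without a filter (-1.86, -1.84 and -1.89 for the mean of both hairpins, sh-MIR100HG-1 and sh-MIR100HG-2), by the likelihood ratio test (-1.86, -1.82 and -1.90) and by DESeq2 (-1.84, -1.82 and -1.87). Its difference between the hairpins, -0.07, was -0.45 to 0.22 with a sample left out, and above 0 without sh-MIR100HG-1 replicate 1 (0.033) and without sh-MIR100HG-2 replicate 2 (0.22). The replicate numbers were not shown to pair the hairpin samples with the controls, while the deviations of the 2 MIR100HG hairpins had a correlation of 0.403. With a replicate block, 10, 31, 7 and 29 of the 48 genes had an unadjusted p under 0.05 in place of 9, 26, 3 and 28, and with the control numbers crossed, an alternative chosen after seeing the data, 9, 27, 3 and 29. Other size factors and a stricter filter moved none of these counts by over 1.5 times. Shares over all genes at an unadjusted p under 0.05 are not given for these other settings. For these settings it is thus open whether the 48 genes passed that threshold more often than the rest. With 2 samples in a group and controls that differed, log2 fold changes of the 48 genes had standard errors of 0.18 to 0.78, and smaller changes could not be told from the spread. A sample left alone in its group was assumed to vary like the others.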
